A study of Mus musculus with 9 samples.

Results

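Genes of the mitotic machinery were followed here in the mouse retina at postnatal day 8 (P8): 54 listed genes of the kinetochore, spindle checkpoint, condensin, cytokinesis and related steps, taken by symbol, each read by its brightest probe set. Of these, 52 were among the 24674 genes tested, and Ccnb1 and Melk were not analysed here. Whole retinas were dissected and snap frozen, and total RNA with an integrity score above 8 was hybridized on an Affymetrix whole-transcript array. Each of the 3 groups had 3 arrays, which the labels call biological replicates: wildtype (WT), Rb KO, in which the retinoblastoma gene Rb1 is deleted, and Rb/p107 DKO (DKO below), in which Rb1 and p107 (Rbl1) are deleted. All mice were on a C57Bl/6x129SvJ background. The labels give the genotype alone, and the promoter or cells in which the deletions were made, and whether retinas of several mice were pooled, are not given in the sources used here. Values are log2 intensities, and a reading counted as above background when it exceeded the level under which 95% of its array's negative controls lay, 7.94 to 8.50 in the 9 arrays.

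To divide, a cell builds a kinetochore on each centromere, which ties the chromosome to spindle microtubules, while the spindle checkpoint delays anaphase until every kinetochore is attached. Condensin compacts the chromosomes, separase cuts the cohesin that holds sister chromatids, and the midzone and contractile ring then split the cell. Most of these genes are transcribed late in the cell cycle: the DREAM complex, which holds p107 or p130 with E2F proteins and the MuvB core, binds their promoters through CHR elements (cell cycle genes homology regions), often beside CCAAT boxes read by NF-Y. RB itself binds and restrains the activator E2F proteins. At P8 the proliferation of retinal progenitors is close to its end and rods are maturing.

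Since these genes are known for shared promoter elements, 3 promoters with CHR letters close to the start site are shown. Each runs from 100 bases before to 25 bases after the start of the gene in RefSeq (GRCm38.p6, plus strand, 5′ to 3′): Prc1 at chr7:80294351-80294475, Kntc1 at chr5:123749626-123749750 and Cenpn at chr8:116921640-116921764. Capitals mark the letters searched on both strands: TTTGAA with the variant TTCGAA for the CHR, CCAAT for the box of that name, and for E2F sites TTTGGCGC as well as TTTCCCGC, each also taken without its first base.
Prc1: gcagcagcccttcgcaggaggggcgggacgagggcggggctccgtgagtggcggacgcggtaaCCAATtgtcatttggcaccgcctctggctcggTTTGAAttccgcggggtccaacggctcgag
Kntc1: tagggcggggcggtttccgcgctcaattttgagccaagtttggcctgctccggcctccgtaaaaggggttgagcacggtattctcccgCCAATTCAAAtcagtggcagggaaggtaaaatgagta
Cenpn: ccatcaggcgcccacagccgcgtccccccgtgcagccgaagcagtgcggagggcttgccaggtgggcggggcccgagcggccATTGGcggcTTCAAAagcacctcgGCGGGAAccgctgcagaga

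The CHR letters spanned positions -5 to 1 of Prc1, -8 to -3 of Kntc1 and -9 to -4 of Cenpn, counted from the start site as 1 with no position 0. Those of Ccnb2, not shown, lie as close as those of Cenpn, at positions 5 to 10. In Kntc1 and Cenpn they lie on the opposite strand, and in Kntc1 the CCAAT box and the CHR share a base. Promoters of 300 bases were held for 44 of the 52 members, 50 promoters in all, of which 31 (62%) had CHR letters, against 19.2% of all 32851 promoters. CCAAT letters stood in 70% of the members' promoters and 37.4% of all, and E2F letters in 22% and 6.81%. CHR and CCAAT letters stood together in 50% of the members' promoters, against 7.52% of all promoters. These shares describe letters in a window and were not tested.

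Most of the machinery was dim in wildtype retina and bright in both mutants. In WT, 7 of the 52 members (13.5%) were above background on all 3 arrays, against 28.0% of all genes, and 39 were above it on none. In Rb KO 33 members and in DKO 38 members were above background on all 3 arrays (63.5% and 73.1%), where all genes gave 26.4% and 27.2%. The WT-detected genes were Mis12, Zwint, Ska2, Bub3, Mad1l1, Ncapd3 and Kpna2. The median member read 6.77 to 6.83 in the WT arrays, 8.95 to 9.28 in Rb KO and 9.34 to 9.63 in DKO, so the groups did not overlap.

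**Figure D1:**
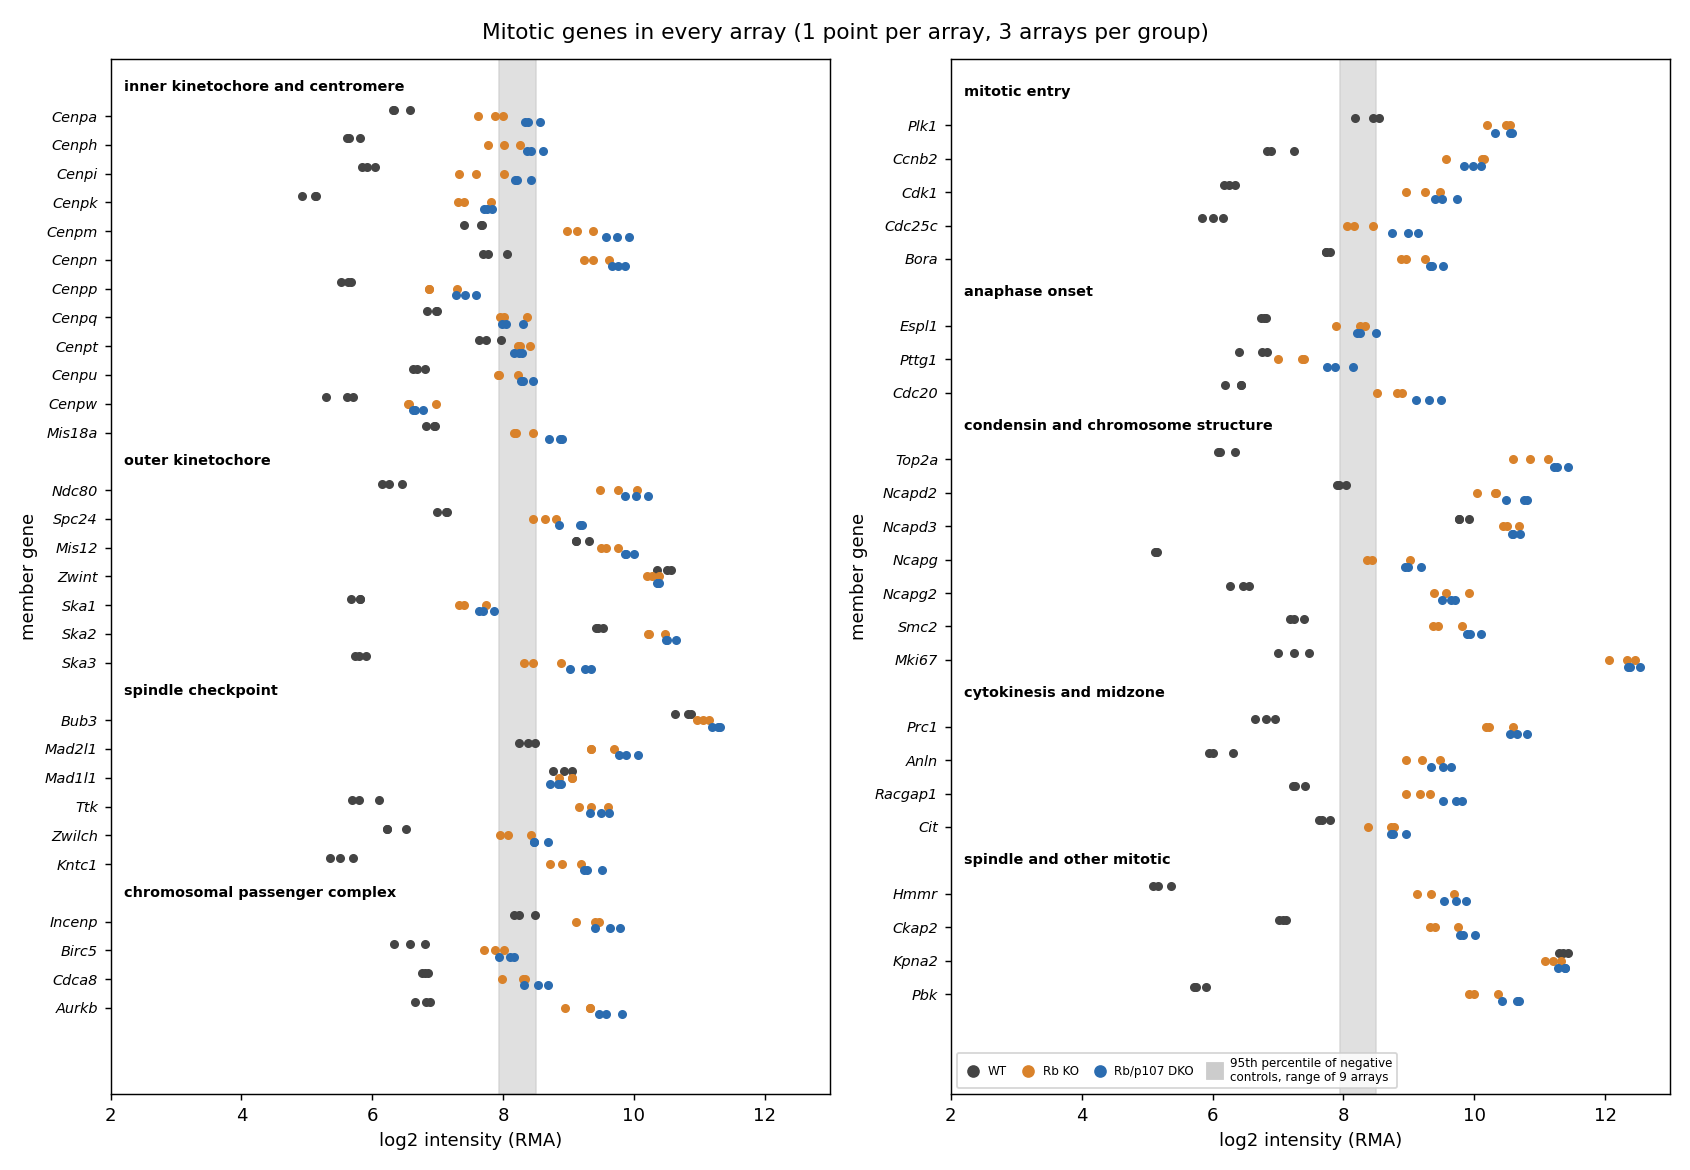
Log2 intensity (x axis) of the 52 measured members (y axis, by subset) in every array, 1 point per array, with WT in dark grey, Rb KO in orange and DKO in blue. The shaded band is the range over the 9 arrays of the background level, 7.94 to 8.50: most WT points lie left of it, and WT points overlap those of Rb KO for Zwint, Mad1l1 and Kpna2.

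**Figure D2:**
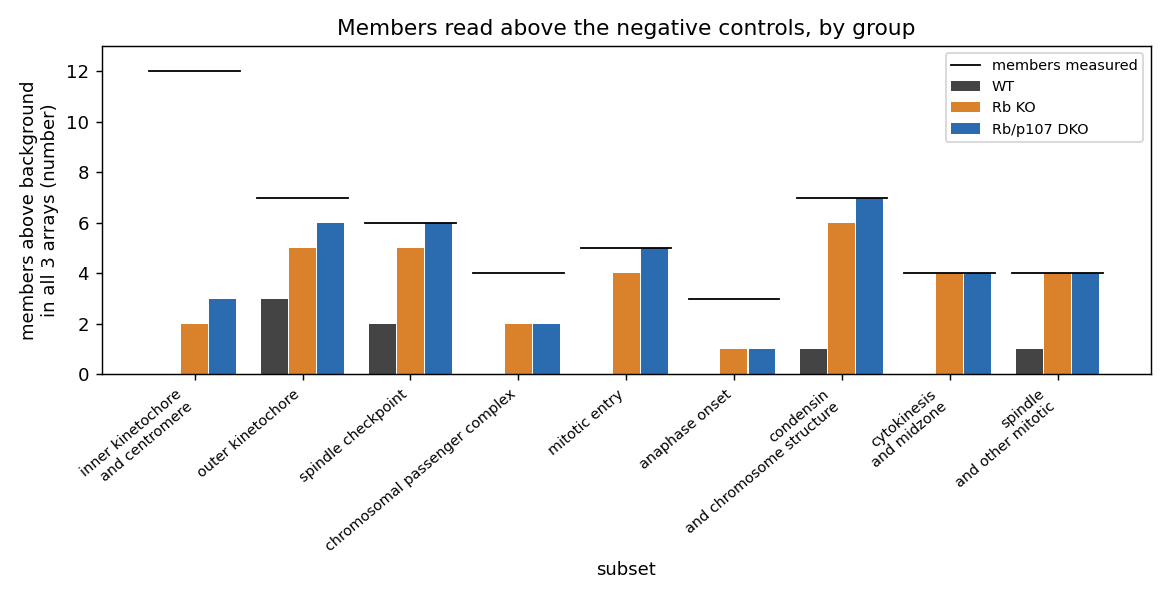
Number of members above background in all 3 arrays of a group (y axis), by subset (x axis); black lines mark the members measured. WT had 7 such members in all, 3 of them in the outer kinetochore, while all members of the cytokinesis subset passed in Rb KO and in DKO.

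Against WT, 49 of the 52 members rose in Rb KO and none fell, by limma with Benjamini-Hochberg adjustment over all genes at an adjusted p under 0.05; Zwint, Mad1l1 and Kpna2 were not called. Over all genes 10.1% were called higher and 14.0% lower in that comparison. In DKO the same 49 members rose and none fell, where 12.1% of all genes were called higher and 16.9% lower. The median log2 difference of the members was 1.72 in Rb KO and 2.12 in DKO, against -0.05 and -0.06 over all genes. Both comparisons use the same WT arrays. In whole tissue, more cells that express a gene and more RNA per cell cannot be told apart.

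The size of a rise could be read as a fold for few members. In Rb KO, 9 risers were above background on at least 1 array of both groups, with folds from 1.22 (Bub3) to 4.80 (Ncapd2). For 26 members WT was not above background and the fold is a lower bound, written "at least" (mutant mean against the WT mean, with each WT reading raised to its array's background), which leaves out the spread between arrays. Cenpq gave no bound above 1, and 13 members read above background on no Rb KO array, so no fold is given for them. In DKO, 31 members had a bound and 9 members had no fold. A bound needed only 1 mutant array above background, so the smallest bounds are weak. With members lacking a fold set to no change and the others at their fold or bound, the median log2 difference was 0.54 in Rb KO and 0.99 in DKO.

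**Figure D3:**
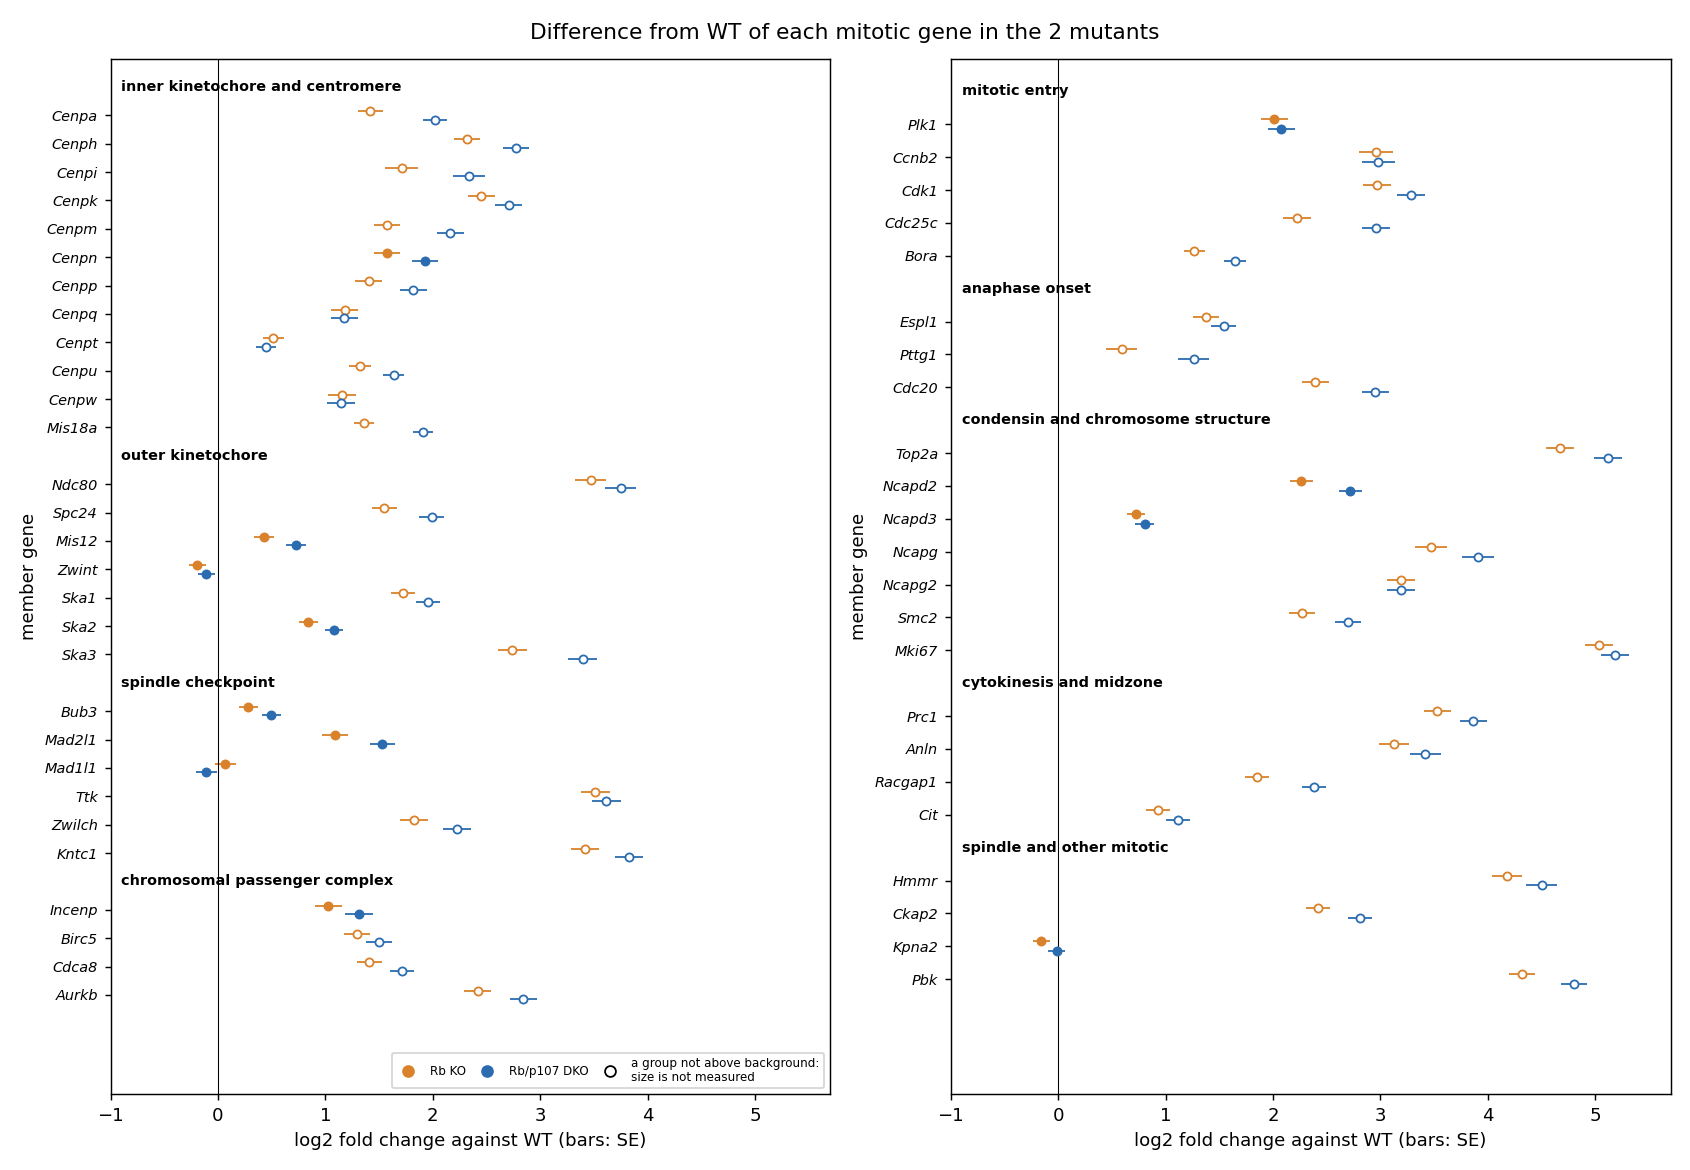
Log2 fold change against WT (x axis, bars are SE) of each member (y axis, by subset) in Rb KO (orange) and DKO (blue); open points mark a group not above background, where the size is not measured. Points lie right of 0 except Zwint, Kpna2 and, in DKO, Mad1l1, and Mki67 lies farthest right at 5.04 and 5.18.

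The inner kinetochore and centromere genes encode the centromeric histone (Cenpa), its deposition factor (Mis18a) and proteins of the constitutive centromere network, and all 12 rose in both mutants (median log2 difference 1.41 in Rb KO and 1.92 in DKO). Cenpk had the highest difference in Rb KO and read 5.12, 5.14 and 4.92 in the WT arrays, 7.31, 7.82 and 7.40 in those of Rb KO and 7.83, 7.71 and 7.75 in those of DKO. Its WT and mutant arrays lay apart, although no array was above background (log2 difference 2.45 ± 0.12 SE, adjusted p = 3.18e-07 in Rb KO). Cenpt, which links centromeric chromatin to the Ndc80 complex, had the lowest difference. It read 7.74, 7.97 and 7.63 in the WT arrays, 8.41, 8.23 and 8.26 in those of Rb KO and 8.29, 8.16 and 8.24 in those of DKO. The difference was 0.52 ± 0.10 (SE) in Rb KO and 0.45 ± 0.10 in DKO (adjusted p = 0.0029 and 0.00538). No mutant array was above background, while 1 WT array was (replicate 2, 7.97). That array had the lowest background level, 7.94, so detection ran opposite to the called rise.

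Cenpa, Cenpm and Mis18a were also called between the mutants. Cenpa read 6.57, 6.32 and 6.33 in the WT arrays, 7.87, 8.00 and 7.61 in those of Rb KO and 8.57, 8.38 and 8.33 in those of DKO. The 3 groups were ordered without overlap, and only DKO had arrays above background, 2 of 3. Cenpm, a centromere network subunit, read 7.67, 7.68 and 7.40 in the WT arrays, 9.37, 9.13 and 8.97 in those of Rb KO and 9.92, 9.57 and 9.74 in those of DKO. It was at least 2.01-fold higher in Rb KO and at least 3.02-fold higher in DKO than in WT (adjusted p = 1.04e-05 and 6.41e-07). Mis18a read 6.96, 6.95 and 6.82 in the WT arrays, 8.17, 8.45 and 8.19 in those of Rb KO and 8.90, 8.70 and 8.87 in those of DKO. Again the groups did not overlap, and DKO was at least 1.59-fold above WT (adjusted p = 1.92e-07). In Rb KO (adjusted p = 3.83e-06) only 1 of 3 arrays was above background, so the bound of 1.09-fold there is not a reliable fold.

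The other 7 genes of the inner kinetochore (Cenph, Cenpi, Cenpn, Cenpp, Cenpq, Cenpu and Cenpw) had log2 differences of 1.15 to 2.32 in Rb KO and 1.15 to 2.77 in DKO. Their arrays ran from 5.30 to 8.06 in WT, from 6.55 to 9.62 in Rb KO and from 6.62 to 9.87 in DKO. Cenpn, whose protein reads the centromeric nucleosome, was the only inner kinetochore member with a measured fold: 2.98 in Rb KO and 3.81 in DKO. Of the 12, 3 were above background on all 3 DKO arrays.

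Outer kinetochore genes, whose products bind microtubules, rose for 6 of 7 in both mutants (median log2 difference 1.55 in Rb KO and 1.96 in DKO). Ndc80, the microtubule-binding subunit that names its complex, read 6.46, 6.25 and 6.15 in the WT arrays, 9.75, 10.05 and 9.48 in those of Rb KO and 10.22, 9.87 and 10.03 in those of DKO. The mutants overlapped each other and lay far above WT, with at least 3.05-fold in Rb KO and at least 3.71-fold in DKO (adjusted p = 9.45e-08 and 4.62e-08). Ska3 belongs to the Ska complex, which strengthens the attachment, and read 5.80, 5.91 and 5.74 in the WT arrays, 8.32, 8.88 and 8.46 in those of Rb KO and 9.35, 9.03 and 9.25 in those of DKO. The 3 groups of arrays did not overlap, and the bounds were at least 1.32-fold in Rb KO and at least 2.09-fold in DKO (adjusted p = 3.01e-07 and 5.19e-08).

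Zwint, which recruits the RZZ complex of the checkpoint to the kinetochore, was bright in every group. It read 10.57, 10.51 and 10.36 in the WT arrays, 10.28, 10.20 and 10.38 in those of Rb KO and 10.36, 10.37 and 10.38 in those of DKO. The groups overlapped, with differences from WT of -0.19 ± 0.08 (SE) in Rb KO and -0.11 ± 0.08 in DKO (adjusted p = 0.103 and 0.339). Without WT replicate 3 it was called lower in Rb KO (log2 difference -0.26, adjusted p = 0.0422). Mis12 and Ska2, also above background in WT, rose 1.34-fold and 1.79-fold in Rb KO and 1.66-fold and 2.11-fold in DKO. Spc24 of the Ndc80 complex and Ska1 had log2 differences of 1.55 and 1.73 in Rb KO, with 1.99 and 1.96 for DKO, and Ska1 was above background on no array.

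Among the spindle checkpoint genes 5 of 6 rose in both mutants (median log2 difference 1.46 and 1.88). Ttk, the kinase that starts checkpoint signalling at the kinetochore, read 6.10, 5.80 and 5.69 in the WT arrays, 9.35, 9.61 and 9.16 in those of Rb KO and 9.62, 9.33 and 9.49 in those of DKO. It was at least 2.33-fold and at least 2.51-fold above WT (adjusted p = 6.79e-08 and 3.86e-08), and the mutants overlapped. Mad2l1 encodes MAD2, part of the inhibitor of the anaphase-promoting complex, and read 8.38, 8.49 and 8.25 in the WT arrays, 9.34, 9.70 and 9.35 in those of Rb KO and 10.06, 9.77 and 9.88 in those of DKO. All 3 groups stood apart, and the fold was measured, at 2.13 in Rb KO and 2.89 in DKO (adjusted p = 9.10e-05 and 5.31e-06).

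Mad1l1, whose protein anchors MAD2 at the kinetochore, did not pass either test against WT. It read 8.93, 9.06 and 8.77 in the WT arrays, 9.05, 9.05 and 8.86 in those of Rb KO and 8.84, 8.72 and 8.88 in those of DKO, and all 3 groups overlapped. The difference was 0.07 ± 0.09 (SE) in Rb KO and -0.11 ± 0.09 in DKO (adjusted p = 0.661 and 0.443). Kntc1 and Zwilch, both of the RZZ complex, had log2 differences of 3.42 and 1.82 in Rb KO, with 3.82 and 2.22 for DKO. Bub3, an adaptor for checkpoint kinases, was bright in all groups and had folds of 1.22 in Rb KO and 1.41 in DKO (adjusted p = 0.0365 and 0.00148). The Rb KO call for Bub3 was lost in 11 alternative settings, at adjusted p of 0.0509 to 0.132, among them leaving out each of WT replicates 1 and 3, Rb KO replicates 2 and 3, and every DKO array.

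The chromosomal passenger complex corrects faulty attachments and later acts at the midzone, and all 4 of its genes rose in both mutants (median log2 difference 1.35 and 1.61). Aurkb, its kinase, read 6.88, 6.82 and 6.65 in the WT arrays, 9.33, 9.33 and 8.94 in those of Rb KO and 9.82, 9.47 and 9.58 in those of DKO. Its groups did not overlap, and it was at least 2.07-fold and at least 2.78-fold above WT (adjusted p = 4.22e-07 and 9.17e-08). Incenp, the scaffold, had the lowest difference in Rb KO and read 8.24, 8.49 and 8.16 in the WT arrays, 9.46, 9.40 and 9.11 in those of Rb KO and 9.78, 9.41 and 9.64 in those of DKO. Being above background on 2 WT arrays, it gave measured folds of 2.04 and 2.49 (adjusted p = 0.00023 and 3.26e-05).

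Birc5 (survivin), the subunit that brings the passenger complex to centromeres, read 6.80, 6.34 and 6.57 in the WT arrays, 8.02, 7.87 and 7.71 in those of Rb KO and 8.17, 8.10 and 7.94 in those of DKO. Both mutants lay above WT without overlap, yet no array was above background, so the log2 differences of 1.30 ± 0.12 (SE) and 1.5 ± 0.12 carry no fold (adjusted p = 3.72e-05 and 9.00e-06). Cdca8 (borealin) had log2 differences of 1.41 and 1.71 and was above background on 2 DKO arrays and no other.

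All 5 measured genes of mitotic entry rose in both mutants (median log2 difference 2.22 and 2.96). Cdk1, the kinase that drives entry, read 6.25, 6.35 and 6.18 in the WT arrays, 9.25, 9.47 and 8.96 in those of Rb KO and 9.73, 9.40 and 9.50 in those of DKO. The mutants overlapped each other, at least 2.11-fold and at least 2.63-fold above WT (adjusted p = 1.25e-07 and 4.94e-08). Plk1, the polo kinase, read 8.46, 8.55 and 8.18 in the WT arrays, 10.49, 10.55 and 10.20 in those of Rb KO and 10.57, 10.31 and 10.54 in those of DKO. It had measured folds of 4.04 and 4.22 (adjusted p = 1.43e-06 and 8.30e-07), with overlapping mutants. Ccnb2, a B-type cyclin and partner of Cdk1, was at least 3.48-fold and at least 3.54-fold above WT.

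Cdc25c, the phosphatase that activates Cdk1, read 5.84, 6.16 and 6.01 in the WT arrays, 8.17, 8.45 and 8.06 in those of Rb KO and 9.14, 8.75 and 8.99 in those of DKO. The groups stood apart, with DKO at least 1.75-fold above WT (adjusted p = 9.04e-08). In Rb KO (adjusted p = 1.00e-06) only 1 of 3 arrays was above background, so the bound of 1.05-fold there is not a reliable fold. Bora, a cofactor of Aurora A in the activation of Plk1, had the lowest difference of the subset in Rb KO. It read 7.74, 7.79 and 7.74 in the WT arrays, 8.96, 9.24 and 8.88 in those of Rb KO and 9.53, 9.32 and 9.35 in those of DKO. No 2 groups overlapped, and the bounds were at least 1.84-fold and at least 2.38-fold (adjusted p = 9.90e-06 and 9.34e-07).

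The 3 genes of anaphase onset rose in both mutants (median log2 difference 1.38 and 1.54). Cdc20, the activator of the anaphase-promoting complex, read 6.43, 6.44 and 6.19 in the WT arrays, 8.82, 8.90 and 8.52 in those of Rb KO and 9.49, 9.11 and 9.31 in those of DKO. Its groups did not overlap, and it was at least 1.51-fold and at least 2.23-fold above WT (adjusted p = 4.30e-07 and 6.73e-08). Pttg1 (securin), the inhibitor of separase, had the lowest difference and read 6.41, 6.83 and 6.75 in the WT arrays, 7.36, 7.40 and 7.00 in those of Rb KO and 8.15, 7.75 and 7.87 in those of DKO. The groups were ordered without overlap and all arrays were below background (log2 difference 0.59 ± 0.15 SE, adjusted p = 0.014 in Rb KO; 1.26 ± 0.15, adjusted p = 0.000115 in DKO). Its Rb KO call was lost when the first WT array or either the first or the second Rb KO array was left out (adjusted p = 0.0541 to 0.0627). Espl1 (separase) had differences of 1.38 and 1.54 and was above background on 1 array, of DKO.

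Condensin and chromosome structure held the highest differences of single genes, and all 7 genes rose in both mutants (median log2 difference 3.19 in each). Mki67, the proliferation antigen Ki-67 that coats mitotic chromosomes, read 7.00, 7.48 and 7.24 in the WT arrays, 12.33, 12.45 and 12.06 in those of Rb KO and 12.53, 12.35 and 12.38 in those of DKO. It was at least 17.5-fold and at least 19.3-fold above WT (adjusted p = 1.57e-08 and 5.04e-09), with overlapping mutants. Top2a, the topoisomerase that untangles sister chromatids, read 6.12, 6.35 and 6.09 in the WT arrays, 10.85, 11.12 and 10.59 in those of Rb KO and 11.43, 11.22 and 11.26 in those of DKO. Its groups did not overlap, and it was at least 6.52-fold and at least 8.90-fold above WT (adjusted p = 1.57e-08 and 5.04e-09).

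Ncapd3, a subunit of condensin II, was the condensin gene above background on all WT arrays and read 9.77, 9.76 and 9.92 in the WT arrays, 10.50, 10.69 and 10.44 in those of Rb KO and 10.70, 10.58 and 10.59 in those of DKO. The mutants overlapped each other but not WT, at 1.65-fold and 1.75-fold (adjusted p = 0.000177 and 6.59e-05). Ncapd2 of condensin I had measured folds of 4.80 and 6.59. Ncapg (condensin I), Ncapg2 (condensin II) and Smc2 (both complexes) had bounds of at least 1.37-, 2.78- and 2.63-fold in Rb KO and at least 1.85-, 2.78- and 3.54-fold in DKO. Their arrays together with Ncapd2 ran from 5.12 to 8.04 in WT, 8.36 to 10.33 in Rb KO and 8.94 to 10.81 in DKO.

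All 4 cytokinesis and midzone genes rose in both mutants (median log2 difference 2.49 and 2.90). Prc1, which bundles the midzone microtubules and whose promoter is printed above, read 6.81, 6.96 and 6.65 in the WT arrays, 10.22, 10.60 and 10.18 in those of Rb KO and 10.80, 10.55 and 10.65 in those of DKO. It was at least 4.55-fold and at least 5.73-fold above WT (adjusted p = 5.09e-08 and 1.62e-08), with overlapping mutants. Racgap1, of the centralspindlin complex, read 7.26, 7.42 and 7.23 in the WT arrays, 9.17, 9.32 and 8.96 in those of Rb KO and 9.82, 9.52 and 9.72 in those of DKO. No groups overlapped, and the bounds were at least 2.0-fold and at least 2.89-fold (adjusted p = 1.07e-06 and 1.15e-07).

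Cit (citron kinase), which acts at the midbody, had the lowest difference of the cytokinesis genes. It read 7.63, 7.79 and 7.68 in the WT arrays, 8.78, 8.73 and 8.37 in those of Rb KO and 8.95, 8.73 and 8.76 in those of DKO. The mutants overlapped each other, at least 1.39-fold and at least 1.58-fold above WT (adjusted p = 0.0002 and 4.33e-05). Anln (anillin), a scaffold of the contractile ring, was at least 2.09-fold and at least 2.56-fold above WT.

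Of the 4 measured spindle and other mitotic genes 3 rose in both mutants (median log2 difference 3.30 and 3.65). Pbk, a mitotic kinase, read 5.74, 5.90 and 5.71 in the WT arrays, 10.00, 10.37 and 9.92 in those of Rb KO and 10.68, 10.42 and 10.65 in those of DKO. The groups stood apart, at least 3.86-fold and at least 5.40-fold above WT (adjusted p = 1.57e-08 and 5.04e-09). Kpna2, an importin alpha that also acts in spindle assembly, was bright throughout and read 11.43, 11.36 and 11.30 in the WT arrays, 11.08, 11.21 and 11.32 in those of Rb KO and 11.38, 11.28 and 11.38 in those of DKO. The groups overlapped, with differences of -0.16 ± 0.08 (SE) and -0.02 ± 0.08 (adjusted p = 0.2 and 0.911). It was the only member with 2 probe sets, and these differed by at most 0.07 in any array, so readings of the gene and of a near-identical copy cannot be told apart. Hmmr and Ckap2, both spindle proteins, were at least 2.36- and 2.53-fold above WT in Rb KO and at least 2.95- and 3.31-fold above it in DKO.

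Between subsets, the median difference from WT in Rb KO ran from 1.35 (passenger complex) to 3.30 (spindle and other). The subsets of condensin and chromosome structure, cytokinesis and spindle had higher medians than the inner and outer kinetochore and the checkpoint. These were 3.19, 2.49 and 3.30 against 1.41, 1.55 and 1.46, and the order of the subsets was not tested. The 3.19 includes Top2a (4.67) and Mki67 (5.04), which are not condensin genes. The condensin genes themselves had 2.26 (Ncapd2), 0.72 (Ncapd3), 3.47 (Ncapg), 3.19 (Ncapg2) and 2.27 (Smc2). With members lacking a fold set to no change and the others at their fold or bound, the highest and lowest subsets were not the same. The medians were 1.47 for condensin and chromosome structure, 1.29 for the spindle and other genes and 1.03 for cytokinesis. They were 0.53 for the checkpoint, 0.51 for the passenger complex and 0.42 for the outer kinetochore. The lowest were 0.00 for the inner kinetochore and for anaphase onset. Of the 12 inner kinetochore genes 10 were above background on no WT array and 6 on no DKO array. For such probe sets a difference of log2 readings can understate a change by an amount that cannot be read here.

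DKO and Rb KO differed less. Of the 52 members 8 were called higher in DKO (15.4%) and none lower, against 1.27% of all genes called higher and 1.19% lower. These were Cdc25c (log2 difference 0.73 ± 0.13 SE, adjusted p = 0.0153), Pttg1 (0.67 ± 0.15, 0.0404), Ska3 (0.66 ± 0.14, 0.0323), Cenpa (0.60 ± 0.11, 0.0222), Cenpm (0.59 ± 0.12, 0.0347), Cdc20 (0.56 ± 0.13, 0.045), Mis18a (0.55 ± 0.09, 0.013) and Racgap1 (0.53 ± 0.11, 0.0305). The 3 DKO and 3 Rb KO arrays did not overlap for these 8, which is no support beyond the calls. The median member differed by 0.32, against 0.00 over all genes, and 48 of 52 (92.3%) lay higher in DKO, with Cenpq, Cenpt, Cenpw and Mad1l1 lower by the value.

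The subset medians of DKO against Rb KO were 0.39 for the inner kinetochore, 0.28 for the outer kinetochore and 0.31 for the checkpoint. They were 0.43 for condensin and chromosome structure and 0.31 for cytokinesis. The 3 genes of anaphase onset had the highest median, 0.56, and 2 of them were called. No gene of condensin and chromosome structure, the passenger complex or the checkpoint was called, and Ncapd2 came closest (0.46 ± 0.11 SE, adjusted p = 0.0527). Some alternatives did call genes of these subsets: Ncapd2, Smc2, Top2a and Mad2l1 after a filter on dim genes (adjusted p = 0.0197, 0.0432, 0.0494 and 0.0355), Ncapd2 and Mad2l1 with array weights (0.0186 and 0.0491), and Mad2l1, Zwilch, Ncapg, Smc2 and Top2a without Rb KO replicate 2 (0.0104 to 0.0483). Smc2 and Top2a were above background on no WT array, so the filter kept them through the mutant arrays alone. Whether the subsets differed from each other in this comparison was not tested. Mki67, Ncapg2, Plk1 and Ccnb2, far above WT in both mutants, differed by 0.14, 0.00, 0.06 and 0.02 between them.

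**Figure D4:**
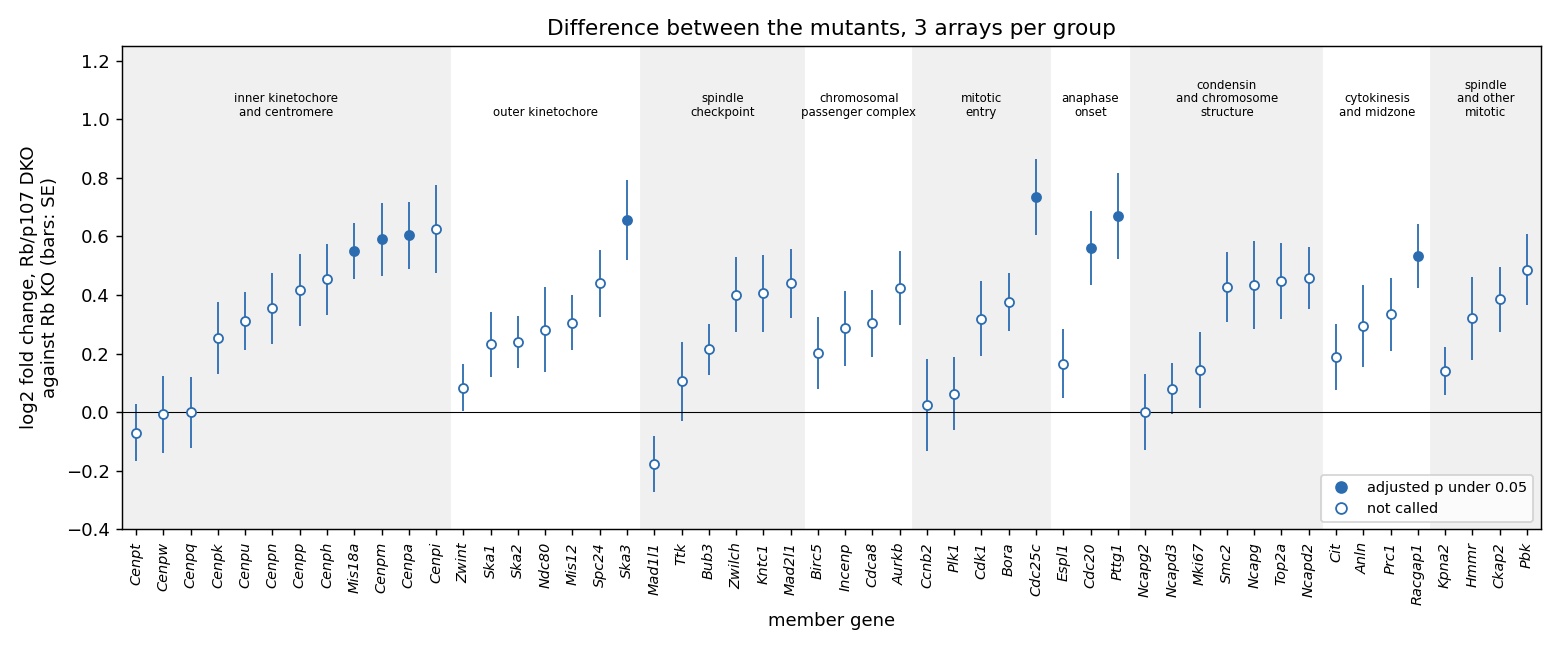
Log2 fold change of DKO against Rb KO (y axis, bars are SE) for each member (x axis, by subset, ordered within it), with 3 arrays per group; filled points passed an adjusted p under 0.05. The 8 filled points lie between 0.53 and 0.73, and 4 members lie below 0.

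The 8 calls were lost when certain single arrays were left out, while the differences stayed positive. By limma none of the 52 members was called without Rb KO replicate 3, without DKO replicate 1 or without DKO replicate 3. Over these 3 omissions the differences of the 8 genes ran from 0.44 (Racgap1) to 0.72 (Cdc25c). Without Rb KO replicate 1 the count was 1, without WT replicate 3 it was 5, and without Rb KO replicate 2 it was 16. Within each mutant the members moved together from array to array: DKO replicate 1 was the highest of its group for 45 of 52 members and DKO replicate 2 the lowest for 44, while Rb KO replicate 2 was the highest for 40 and Rb KO replicate 3 the lowest for 37. The summed intensity of 7 rod markers ran the other way in these mutant arrays. It was 13394 and 24503 in DKO replicates 1 and 2 and 15503 and 25605 in Rb KO replicates 2 and 3. In WT too the members moved together, with replicate 2 the highest for 36 and replicate 3 the lowest for 35. The rod sum did not run the other way there, at 45550 in WT replicate 2 and 43790.5 in WT replicate 3. Lens markers summed to 9119 in DKO replicate 2 and to 2689 and 2367 in the other DKO arrays. The part of these in the result was not tested.

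Other genes of the same pathways were followed as well. These lists and the members were chosen with earlier results of the data known. How uniform either is, or how the 2 compare, is therefore no support. Of 130 listed, 86 were measured and the others were not analysed here. In Rb KO 55 rose (64.0%) and 2 fell (2.33%), with a median log2 difference of 0.53, against 10.1% and 14.0% of all genes. In DKO 55 rose (64.0%) and 5 fell (5.81%), with a median of 0.62, against 12.1% and 16.9% of all genes. Between the mutants 6 (6.98%) were higher in DKO (Dlgap5, Cep55, Pimreg, Kif18b, Tacc3 and Haspin) and Cdc26 (1.16%) was lower, against 1.27% and 1.19% of all genes. The shares that fell lay below or near those of all genes. Leaving out single arrays gave 50 to 55 risers and 0 to 4 fallers in Rb KO, 54 to 56 and 4 to 7 in DKO, and 1 to 11 and 0 to 1 between the mutants.

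By list, 9 of 14 further kinetochore and checkpoint genes rose in Rb KO and 10 in DKO, among them Sgo1, the protector of centromeric cohesin (at least 1.87-fold and at least 2.54-fold). Haspin, the histone kinase that brings the passenger complex to centromeres, rose below background (log2 difference 1.64 and 2.01). Of 14 cohesin genes 8 rose in each mutant, led by the acetyltransferase Esco2 (at least 1.89-fold and at least 2.08-fold) and sororin, Cdca5 (at least 2.06-fold and at least 2.49-fold). Esco1, the other cohesin acetyltransferase, fell in DKO (log2 difference -0.48 ± 0.10 SE, adjusted p = 0.00419). Further condensin and chromosome genes rose for 5 of 7 in each mutant, with Cdca2 at least 1.66-fold and at least 2.36-fold above WT and Cdca3 with log2 differences of 1.48 and 1.56.

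The anaphase-promoting complex had the lowest median of these lists: 5 of 15 rose and 1 fell in Rb KO, and 5 rose and 2 fell in DKO (median log2 difference 0.09 and 0.08). Its risers included the inhibitor Fbxo5 (at least 3.0-fold and at least 3.40-fold) and the ubiquitin-conjugating enzyme Ube2s (log2 difference 0.83 and 0.95). The subunits Anapc16 (-0.31 and -0.42) and, in DKO, Cdc26 (-0.27, adjusted p = 0.026) fell. The Anapc16 call in Rb KO was lost without Rb KO replicate 1 or 2 (adjusted p = 0.0618 and 0.0735), and the Cdc26 call in DKO without WT replicate 2, DKO replicate 1 or DKO replicate 3.

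Further genes of mitotic entry and exit rose for 7 of 9 in Rb KO and 6 of 9 in DKO. The Rb KO count includes Arpp19 (adjusted p = 0.0498), whose arrays overlapped those of WT. That call was lost on leaving out any 1 of 8 arrays (adjusted p = 0.063 to 0.187). The Cdk1-inhibiting kinase Wee1 was at least 2.84-fold and at least 3.66-fold above WT and the phosphatase Cdc25a at least 1.95-fold and at least 2.17-fold. Of 27 further cytokinesis and spindle genes 21 rose in each mutant. The spindle motor Kif11 was at least 5.66-fold and at least 7.65-fold above WT, and the motor Kif15 at least 1.68-fold and at least 2.10-fold. Dlgap5, a spindle microtubule protein, was at least 1.95-fold and at least 3.42-fold above WT and was the further gene with the largest difference between the mutants (0.81 ± 0.11 SE, adjusted p = 0.0027). Vps4a, the ATPase of the ESCRT machinery that severs the midbody, fell in both mutants (-0.30 and -0.37), and the ESCRT subunit Chmp2a fell in DKO (-0.38, adjusted p = 0.00575). The Rb KO call for Vps4a was lost when the first or second WT array, or Rb KO replicate 2 or 3, was left out (adjusted p = 0.0616 to 0.102).

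The deleted genes checked the labels only in part. Rb1 read 10.00, 10.19 and 10.46 in the WT arrays, 9.85, 10.02 and 9.86 in those of Rb KO and 9.74, 10.00 and 9.85 in those of DKO. All arrays held the signal, with a log2 difference from WT of -0.31 ± 0.12 (SE, adjusted p = 0.0799) in Rb KO and of -0.36 ± 0.12 in DKO (adjusted p = 0.0426, a call lost on leaving out any 1 of 7 arrays, at adjusted p of 0.0523 to 0.154). The part of the gene that the probes cover is not given in the sources used here, and Rbl1 was not analysed here. The related Rbl2 (p130) did not pass against WT (-0.17 and -0.22, adjusted p = 0.127 and 0.0557). Arrays correlated at 0.992 to 0.998 within groups.

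Markers of cell types also differed between the groups, some higher and some lower in the mutants. All 7 measured rod markers were above background in every group (Nrl on 2 of 3 DKO arrays) and fell in both mutants, their summed intensity being 42752 to 45550 in WT, 15503 to 25605 in Rb KO and 13394 to 24503 in DKO. Of 4 measured progenitor markers Fabp7 and Hes1 rose in Rb KO, and Fabp7 and Fgf15 in DKO, Fgf15 being above background in no group (sums 2530 to 3048, 5643 to 6019 and 3064 to 3778). Of 10 microglia and macrophage markers 7 rose in Rb KO and 6 in DKO (sums 1490 to 1665, 1983 to 3047 and 2513 to 3497), with 8 of them not above background in WT. Müller glia fell for 4 of 5 markers in each mutant, pigment epithelium for 8 of 9, endothelium and pericytes for 7 and 8 of 9, and astrocytes for 3 and 2 of 5 with 1 higher in DKO (Pax2). Rlbp1 is counted in the Müller glia list and again in that of the pigment epithelium. Among these called markers, Mlana, Slc45a2 and Tyr (pigment epithelium), Esam (endothelium) and S100b, Aldh1l1 and Pax2 (astrocytes) were above background on no array. Lens markers rose for 4 of 9 in DKO and for none in Rb KO, and neither of 2 erythrocyte markers was called. Between the mutants, Fabp7 (log2 difference -1.07, adjusted p = 0.000891), Hes1 (-0.50, 0.0346), Nrl (-0.63, 0.0308) and Crx (-0.60, 0.0302) were lower in DKO. Gfap was higher (0.78, 0.0302), above background on 1 of 3 DKO arrays and on no Rb KO array. No other marker was called. By the value, 1 rod marker, Gnat1 (1.18, adjusted p = 0.154), and 1 progenitor marker, Fgf15 (0.65, 0.0977), lay higher in DKO. The part of these cells in the mitotic counts was not tested.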

How the data were processed

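The authors deposited 1 table of log2 intensities per probe set, made by RMA (robust multi-array averaging), which the submitters' processing notes name without a version; the annotation's genome build is not given in the sources used here. Of 52917 transcript clusters, 24646 had 1 gene symbol, 1795 several (480 being names of 1 gene, which were kept) and 26476 none listed. Each gene was read by the probe set with the highest mean over the 9 arrays, with no filter on dim probe sets, giving 24674 genes, of which 24672 were in a RefSeq gene table used for names. Array medians were 5.83 to 6.03.

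Groups were compared with limma 3.58.1 in R 4.3.3 on all 9 arrays (6 residual and 4.72 prior degrees of freedom), and p was adjusted by the Benjamini-Hochberg method over all genes. P-values measure the spread between arrays, and 3 arrays per group limit their precision. The code was tested on simulated data. The members, subsets, further lists and markers were chosen with earlier results of these data known. All members could be named. Array values are given for the highest and lowest member of each subset in Rb KO, members called between the mutants or not called against WT, and 9 well-known mitotic genes chosen by name. Of the further lists, genes that fell and up to 2 risers with the lowest p are named, with those called between the mutants and Arpp19, whose call was marginal. The marker lists covered rods, progenitors, Müller glia, microglia, endothelium, lens, pigment epithelium, astrocytes and erythrocytes. Promoters (250 bases before to 50 after the start) came from RefSeq. Alternatives changed the probe set rule, filter, scaling, model and arrays. Figures used matplotlib 3.10.9.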

Additional observations from a re-analysis of the deposited data

How the results depend on the processing

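Against WT, no member that was tested changed its call in DKO in any setting tried; in Rb KO the count was 47 to 49 when single arrays were left out, with changes for Bub3, Pttg1 and Zwint as given above. A filter keeping genes above background on 3 arrays left 38 members, most of them through the mutant arrays in which they are high, so their medians of 2.24 in Rb KO and 2.71 in DKO are no support. No result reversed. The 8 calls between the mutants became 3 when every probe set was tested, 13 with the filter, 5 with quantile normalization, 3 with median centring, 14 with array weights and 0 to 16 when single arrays were left out, with a median difference of all 52 members of 0.26 to 0.45. Replicate numbers did not pair the arrays (correlation of same-numbered deviations -0.16 to 0.15); with the replicate number as a block 5 members were called between the mutants, 48 in Rb KO and 49 in DKO. The cause of these changes was not tested. Dim readings limit the folds: 39 of 52 members were above background on no WT array.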

Other observations

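Among the 44 members with a RefSeq promoter, the 29 with CHR letters had a median log2 difference from WT of 2.39 in Rb KO and 2.81 in DKO, and 28 of them rose in each; Kpna2 did not. The 15 without had medians of 1.09 and 1.26, and 13 rose in each, all but Zwint and Mad1l1. Dim readings weigh unequally on this split. Of those without CHR letters, Cenph, Cenpi, Cenpk, Cenpp, Cenpt, Cenpu, Birc5 and Pttg1 were above background on no Rb KO array. Of those with CHR letters, Cenpa, Cenpw, Cdca8 and Espl1 were not either. No fold in Rb KO could be read for these genes, so the medians do not compare sizes of change. The 31 with CCAAT letters had medians of 2.01 and 2.38, and 29 rose in each, against 1.30 and 1.53 with 12 risers among the 13 without. The 11 members with E2F letters had medians of 2.32 and 2.72 and all rose, against 1.41 and 1.91 with 30 risers among the 33 without. These overlapping splits were looked at after the differences were known and were not tested.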
